A study of Mus musculus with 5 samples.

Results

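The 39 Hox genes of the mouse were the subject, taken as every symbol made of Hox, a cluster letter from a to d and a number, after the table's Entrez identifiers were mapped to RefSeq symbols. All 39 were found among the 24100 genes of the count table. They comprise 11 genes of the Hoxa cluster, 10 of Hoxb, 9 of Hoxc and 9 of Hoxd. By paralog number, 12 are anterior (1 to 4), 11 central (5 to 8) and 16 posterior (9 to 13). RNA was sequenced from cells sorted out of the back skin of male mice of a CD1/C57Bl6J mix. The 2 libraries of quiescent melanocyte stem cells (McSC) came from Dct-eGFP+ mice in 2nd telogen, the resting phase of the hair cycle, at postnatal days 60 and 62, each from 4 pooled males. The 3 melanocyte libraries came from Dct-EGFP+ Lef1-RFP+ mice in full anagen, the growth phase, at postnatal day 10, from 3, 2 and 4 pooled males. Dct is a pigment gene, so the green reporter marks the melanocyte lineage of the follicle. In both groups cells were gated on medium to low integrin α6, and those with Sca1, CD34 or a dump marker (CD31, CD45, CD140a) were left out. Only the melanocyte gate added the Lef1-RFP reporter and c-Kit. The groups thus differ at once in age, stage of the hair cycle, reporters and gate, whose parts in any difference cannot be told apart.

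Hox genes encode homeodomain transcription factors. They lie in 4 clusters, within which the order of the genes follows the order of their expression from head to tail, and genes of equal number in different clusters (paralogs) descend from a common ancestor. The combination that a cell keeps into adult life is known as a positional code, and in skin it has been described best in dermal fibroblasts. Neural crest cells, from which melanocytes descend, carry the code of the axial level at which they arose. Hoxc13 stands apart, since it is active in the hair matrix and nail over the whole body and regulates hair keratin genes. On the build GRCm38 (mm10), with GENCODE M21 models, Hoxa spans chromosome 6, 52155590 to 52260880, and Hoxb chromosome 11, 96194316 to 96368256. Hoxc spans chromosome 15, 102921103 to 103036852, and Hoxd chromosome 2, 74668310 to 74765142.

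Promoter windows from RefSeq (GRCm38.p6), 250 bases before to 50 after an annotated start, were at hand for 22 of the 39 genes in 24 windows. The motif TGATNNAT, the joint site of PBX and HOX proteins, was searched on both strands and was found in 4 of the 24 windows (16.7%), against 8.85% of the 32851 windows of all genes. Below are the 4 windows with a match and that of Hoxd8, the tested Hox gene with the highest log2 fold change, which had none. Each is printed 5′ to 3′ on the gene's strand, with the match in capitals.
Hoxa2 (chr6:52164782-52165081, - strand): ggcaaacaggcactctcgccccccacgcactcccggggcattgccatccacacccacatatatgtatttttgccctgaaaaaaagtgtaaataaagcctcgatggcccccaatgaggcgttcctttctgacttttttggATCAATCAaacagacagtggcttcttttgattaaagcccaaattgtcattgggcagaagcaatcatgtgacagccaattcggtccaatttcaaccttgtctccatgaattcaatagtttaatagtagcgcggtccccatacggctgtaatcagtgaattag
Hoxb1 (chr11:96365508-96365807, + strand): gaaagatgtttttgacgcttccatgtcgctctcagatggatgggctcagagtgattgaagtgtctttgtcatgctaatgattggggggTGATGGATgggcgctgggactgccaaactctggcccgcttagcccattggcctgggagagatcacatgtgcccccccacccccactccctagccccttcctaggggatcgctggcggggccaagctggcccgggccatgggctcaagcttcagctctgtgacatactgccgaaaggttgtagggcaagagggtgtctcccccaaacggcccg
Hoxb8 (chr11:96281655-96281954, + strand): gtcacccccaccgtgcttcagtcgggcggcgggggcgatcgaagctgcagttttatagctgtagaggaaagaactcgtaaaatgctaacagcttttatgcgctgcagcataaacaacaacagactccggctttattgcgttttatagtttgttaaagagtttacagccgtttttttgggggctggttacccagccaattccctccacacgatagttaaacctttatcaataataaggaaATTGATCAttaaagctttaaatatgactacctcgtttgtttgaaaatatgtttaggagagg
Hoxd8 (chr2:74704365-74704664, + strand): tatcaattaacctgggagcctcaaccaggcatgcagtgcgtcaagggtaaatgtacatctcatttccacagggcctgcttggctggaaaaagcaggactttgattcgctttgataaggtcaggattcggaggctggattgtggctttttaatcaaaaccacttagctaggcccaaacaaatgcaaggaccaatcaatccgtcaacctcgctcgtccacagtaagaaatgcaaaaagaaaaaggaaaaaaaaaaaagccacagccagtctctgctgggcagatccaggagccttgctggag
Hoxd11 (chr2:74682073-74682372, + strand): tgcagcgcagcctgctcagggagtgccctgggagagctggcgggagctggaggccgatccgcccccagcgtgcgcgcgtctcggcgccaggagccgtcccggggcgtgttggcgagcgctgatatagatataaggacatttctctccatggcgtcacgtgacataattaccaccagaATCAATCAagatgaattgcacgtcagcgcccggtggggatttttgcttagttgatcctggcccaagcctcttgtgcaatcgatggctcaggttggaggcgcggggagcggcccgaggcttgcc
In Hoxb8 the match begins 11 bases before the annotated start, and in Hoxd11 (its second start) 73 bases before it. A match is a description of these letters and no measure of binding. The Hox windows held between 4 and 45 CG dinucleotides (median 14.5, against 7 over all windows). The extremes were Hoxa13 with 45, and Hoxa9, Hoxd4 and the first start of Hoxd11 with 4 each.

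Library totals ranged from 17512381 to 124530834 counts, a 7.11-fold range, and the shallowest library is melanocyte library 3. A count of 3 equals between 0.0268 and 0.16 CPM (counts scaled to a fixed library size, here with TMM factors for RNA composition) in the deepest and the shallowest library. Counting intervals and such floors cover counting error only. The melanocyte label was checked against 10 lineage markers. None was higher in melanocytes, and 4 were lower: Mitf, Sox10, Pax3 and Kit, the gene of the c-Kit used in the melanocyte gate (4 higher and 6 lower without melanocyte library 1). Of all tested genes, with all libraries, 29.1% were higher in melanocytes and 26.2% lower. Kit read 1657 and 1541 CPM in quiescent McSC against 157, 454 and 484 CPM (-2.13 ± 0.46, edgeR adjusted p = 0.00923), and Pax3 1189 and 1389 CPM against 25.0, 69.9 and 87.2 CPM (-4.41 ± 0.52). All 10 had counts in every library, Dct included (10444 and 11528 CPM in quiescent McSC, and 1073, 5777 and 6505 CPM in melanocytes). Melanocyte library 1 stood apart: its summed lineage markers reached 3159 CPM, against 18379 and 19986 CPM in libraries 2 and 3. Its 14 fibroblast and dermal papilla markers summed to 5596 CPM, against 2110 and 1966 CPM. Results that rest on this library are given with and without it.

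Hox RNA as a whole was more abundant in the melanocyte libraries. Summed over the 39 genes it read 58.8 and 66.3 CPM in quiescent libraries 1 and 2, and 583, 427 and 603 CPM in melanocyte libraries 1 to 3. The ratio of the means was 8.6, and the groups did not overlap. Without Hoxc13 the sums were 44.0 and 55.7 CPM against 393, 249 and 428 CPM, a ratio of 7.15. In bulk RNA, fewer cells of a type and less RNA per cell cannot be told apart.

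**Figure D1:**
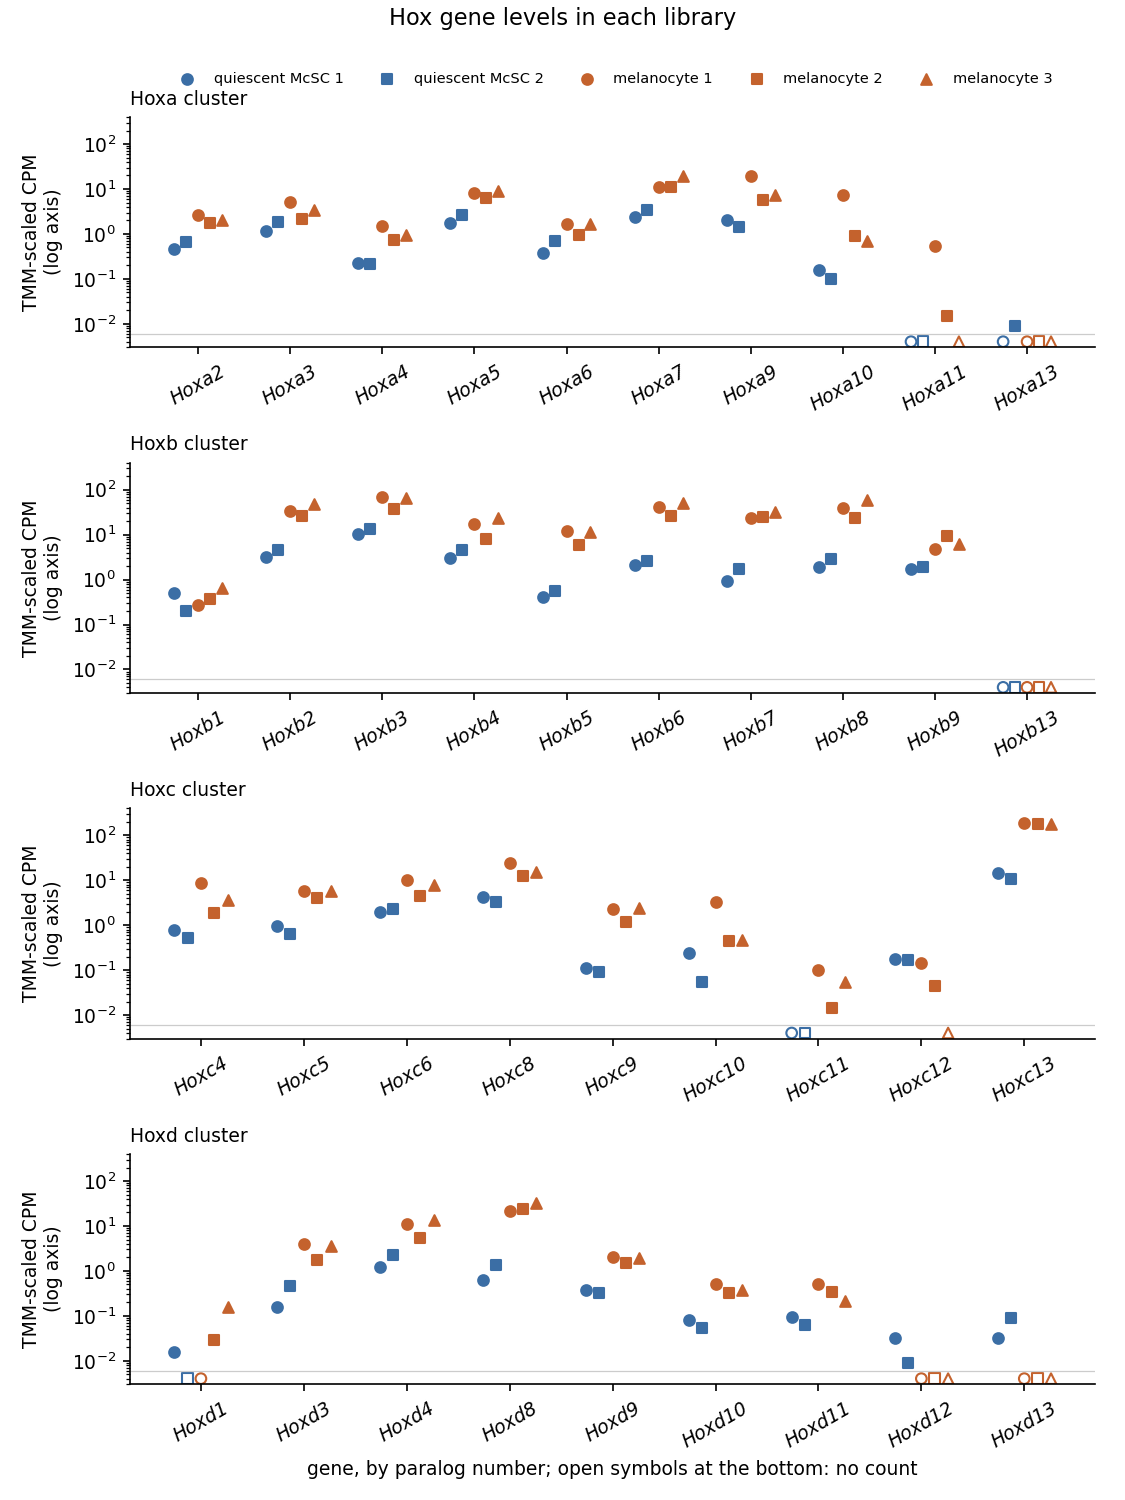
Levels of the Hox genes reported by name in each library, in TMM-scaled CPM on a log axis, with 1 panel per cluster and genes ordered by paralog number. Blue symbols are the 2 quiescent McSC libraries and orange symbols the 3 melanocyte libraries, and open symbols at the bottom stand for no count. Hoxc13 reaches 175 to 190.4 CPM in melanocytes, and most genes of numbers 11 to 13 sit at or near 0.

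Of the 39 genes, 32 had enough counts to be tested, with edgeR's quasi-likelihood test and Benjamini-Hochberg adjustment over all 16953 tested genes. Among them 26 were higher in melanocytes and 6 were not called. By edgeR 0 were lower in melanocytes, and 0 at an unadjusted p under 0.05, by DESeq2 or by limma-voom. Of all tested genes, 55.4% were called, 29.1% higher in melanocytes and 26.2% lower. The upward share of all calls was 52.6%, or 63.7% when only library size was scaled for. The median log2 fold change (melanocyte minus quiescent McSC) was 2.43 over the tested Hox genes and 0.03 over all genes tested. At least 4-fold higher and called were 22 Hox genes, against 12.7% of all tested genes. At least 16-fold higher were 7 Hox genes (Hoxa10, Hoxb5, Hoxb6, Hoxb7, Hoxb8, Hoxc9, Hoxd8), against 5.45%. The 22 include Hoxa10, Hoxc9, Hoxd3, Hoxd10 and Hoxd11, which passed the filter on low counts only through the melanocyte libraries. Hoxa10 and Hoxc9 are also among the 7. In 31 of the 39 genes every melanocyte library was above both quiescent McSC libraries, a pattern found in 38.1% of all tested genes. In 3 (Hoxc12, Hoxd12, Hoxd13) every melanocyte library was below them, a pattern found in 36.4% of all tested genes. Both percentages are over tested genes only, whereas Hoxc11, among the 31, and Hoxd12 and Hoxd13 had too few counts to be tested. In each of these a whole group had no count.

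These counts describe genes that passed a filter on low counts. In 26 of the 32 tested Hox genes both quiescent McSC libraries reached the filter's level of 0.149 CPM (here by library size alone, without TMM factors) on their own, and 21 of those 26 were called. The other 6 (Hoxa10, Hoxc9, Hoxc10, Hoxd3, Hoxd10, Hoxd11) passed only through the melanocyte libraries, so the filter itself favoured a difference in them. With no filter 38 Hox genes were tested, and 26 were again called higher in melanocytes. Fewer genes were called higher in melanocytes when either quiescent library was left out. The other is then the only library of its group and is assumed to vary like the melanocytes. Why fewer genes were called was not tested. Without melanocyte library 1 the count was 26. Called under every alternative in which they were tested were 16 genes: Hoxa5, Hoxa7, Hoxb2, Hoxb3, Hoxb5, Hoxb6, Hoxb7, Hoxb8, Hoxb9, Hoxc5, Hoxc8, Hoxc9, Hoxc13, Hoxd3, Hoxd8 and Hoxd9.

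**Figure D2:**
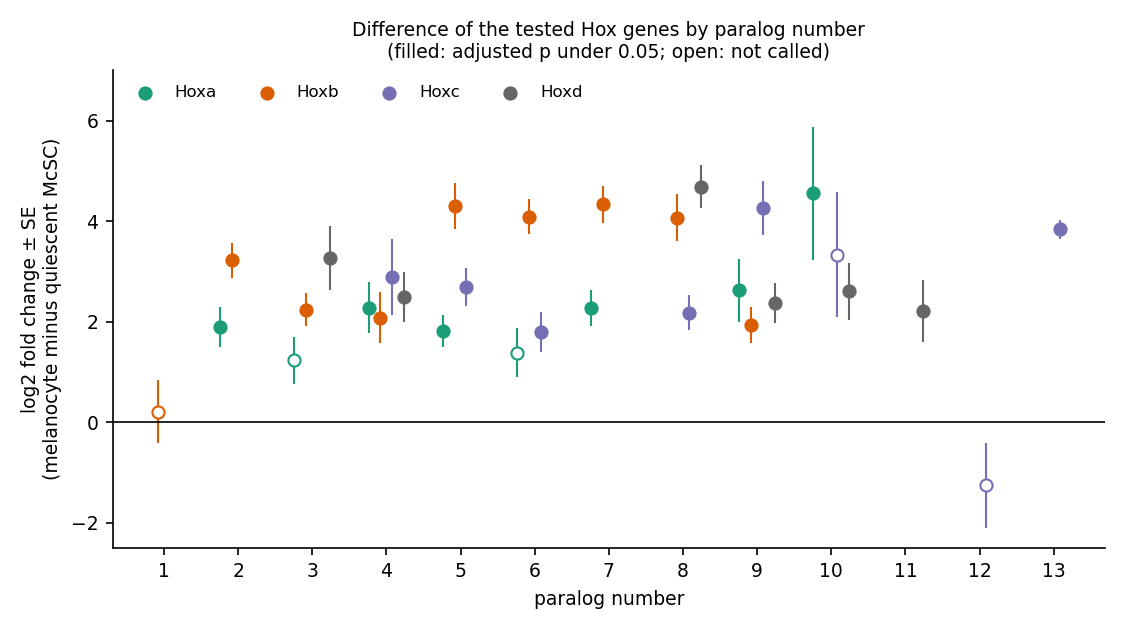
Log2 fold change (melanocyte minus quiescent McSC) with its standard error for the tested Hox genes reported by name, by paralog number and coloured by cluster. Filled points passed an adjusted p of 0.05. Hoxb5 to Hoxb8, Hoxd8, Hoxc9 and Hoxa10 lie above 4, and Hoxc12 is the only point below 0.

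Hoxb, the cluster with the most RNA once Hoxc13 is set aside, had 8 of its 9 tested genes called higher in melanocytes (29.1% of all tested genes were), with a median log2 fold change of 3.22. Its sum read 23.9 and 32.5 CPM in quiescent McSC and 241, 161 and 297 CPM in melanocytes. The largest differences sat in the middle of the cluster. Hoxb7, a central gene of the trunk code (chromosome 11, 96286623 to 96290162, plus strand), read 0.914 and 1.69 CPM in quiescent McSC and 23.1, 24.7 and 31.9 CPM in melanocytes. Its log2 fold change was 4.33 ± 0.36 (SE, edgeR adjusted p = 0.000274), and the melanocyte libraries lay close together and far above the quiescent pair. Hoxb8, which in the embryo acts in thoracic segments and in spinal sensory circuits, read 1.89 and 2.88 CPM against 39.5, 24 and 58.2 CPM. The difference was 4.07 ± 0.46 (adjusted p = 0.000809), and melanocyte library 2 was the lowest of its group. Hoxb6 stood at 2.12 and 2.53 CPM against 41.8, 26.3 and 51.1 CPM (4.09 ± 0.35, adjusted p = 0.000305). Hoxb5 was scarce in quiescent McSC at 0.417 and 0.554 CPM and read 12.1, 5.78 and 11.3 CPM in melanocytes (4.30 ± 0.46, adjusted p = 0.000662). In Hoxb5, Hoxb6 and Hoxb8 melanocyte library 2 was the lowest of the 3 and still above both quiescent libraries.

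Among the anterior Hoxb genes, Hoxb2 to Hoxb4 were higher in melanocytes and Hoxb1 was not called. Hoxb3, an anterior gene of hindbrain and neck levels, was the most abundant of them in CPM, at 10.2 and 13.6 CPM in quiescent McSC against 67.5, 36.6 and 64.7 CPM (2.24 ± 0.32, adjusted p = 0.00181). Hoxb2, known for patterning the hindbrain and its facial motor neurons, read 3.19 and 4.57 CPM against 33.9, 25.8 and 49.2 CPM (3.22 ± 0.35, adjusted p = 0.000706). The 2 groups did not overlap in either gene. Of the exonic bases of Hoxb3, 63.9% overlap the antisense gene Hoxb3os, as do 58.5% of those of Hoxb2, and without strand the reads of both strands are counted together. Hoxb4 had 3.00 and 4.65 CPM against 17.7, 8.06 and 23.3 CPM (2.08 ± 0.50, adjusted p = 0.0135), a call lost without quiescent library 1 (0.0923) or 2 (0.0505). Hoxb9, the posterior member next to Hoxb8, read 1.68 and 1.87 CPM against 4.76, 9.15 and 6.36 CPM (1.93 ± 0.36, adjusted p = 0.00547). Hoxb1, the most anterior gene, which specifies a single hindbrain segment in the embryo, was not called. It had 0.513 and 0.205 CPM against 0.271, 0.367 and 0.642 CPM, and the groups overlapped (0.21 ± 0.62, adjusted p = 0.791). Hoxb13, a gene of the tail and prostate, had no count in any library, which allows at most 0.0268 to 0.16 CPM per library.

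Hoxc was set by Hoxc13, a regulator of hair keratin genes in the hair matrix (chromosome 15, 102921103 to 102928814, plus strand). Its level was 14.7 and 10.6 CPM in quiescent McSC and 190.4, 178 and 175 CPM in melanocytes. The melanocyte libraries differed by a factor of 1.09 from highest to lowest, the lowest such factor among tested Hox genes with counts in all 3. The log2 fold change was 3.84 ± 0.19 (adjusted p = 6.4e-05), that is 14.3-fold, and ranged from 3.62 to 4.09 over 13 alternatives. Hair follicle and hair shaft markers moved in the same libraries: all 18 tested were higher in melanocytes (median log2 fold change 7.24), where 29.1% of all tested genes were. The sum of these markers was 41.3 to 86.7 CPM in quiescent McSC against 4256 to 5985 CPM in melanocytes. Tchh, the trichohyalin gene of the inner root sheath, read 2.23 and 2.86 CPM against 1382, 2227 and 1130 CPM. Of these 18 only Krt34 had no count in quiescent McSC, and the part of hair follicle RNA in the Hoxc13 difference was not tested.

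The other Hoxc genes lay far below Hoxc13. Of the 7 tested, 5 were higher in melanocytes (29.1% of all tested genes were) and 2 (Hoxc10, Hoxc12) were not called. Hoxc8, a thoracic gene and the most abundant of them, read 4.35 and 3.36 CPM against 24.1, 12.8 and 15.3 CPM (2.18 ± 0.34, adjusted p = 0.00278). Hoxc9, its posterior neighbour, was near the floor in quiescent McSC at 0.112 and 0.0893 CPM and reached 2.27, 1.20 and 2.41 CPM (4.26 ± 0.54, adjusted p = 0.00124). Like Hoxc10, it passed the filter only through the melanocyte libraries. Hoxc5 (2.69 ± 0.37) and Hoxc6 (1.79 ± 0.40) were higher by smaller amounts, and Hoxc6 lost its call without quiescent library 1 (adjusted p = 0.0763) or 2 (0.0607). Hoxc4 stood at 0.786 and 0.509 CPM against 8.90, 1.88 and 3.58 CPM (2.89 ± 0.75, adjusted p = 0.0185), with the highest value in melanocyte library 1. Its call was lost without quiescent library 1 (0.0771) or 2 (0.12), and without melanocyte library 1 the log2 fold change was 2.06 (0.00901). Hoxc12 had 11 and 19 counts in quiescent McSC and 6, 3 and 0 in melanocytes (-1.26 ± 0.85, adjusted p = 0.249). It was the only tested Hox gene with a negative log2 fold change, and stood at -2.32 (0.0561) without melanocyte library 1. Hoxc11 had no count in quiescent McSC and 4, 1 and 1 in melanocytes, at least 2.74-fold higher against a floor of 3 counts over the group.

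All 6 tested Hoxd genes were higher in melanocytes (29.1% of all tested genes were). Of the 6, 3 (Hoxd3, Hoxd10, Hoxd11) passed the filter only through the melanocyte libraries. The median log2 fold change of the 6 genes was 2.54. Hoxd8 (chromosome 2, 74704615 to 74707933, plus strand), the central member, had the largest: 0.626 and 1.34 CPM against 21.3, 23.7 and 31.8 CPM (4.68 ± 0.43, adjusted p = 0.000379), or 25.6-fold. Its lowest melanocyte library was far above its highest quiescent one. Hoxd4 read 1.22 and 2.25 CPM against 10.8, 5.48 and 13.3 CPM (2.49 ± 0.50, adjusted p = 0.00702), and lost its call without quiescent library 1 (0.0512). Hoxd3 (3.27 ± 0.64) shares up to 68.6% of its exonic bases with another gene model (Gm28230 or the antisense Hoxd3os1), and Hoxd4 45.1% with Gm28230, so reads there cannot be told apart. Posterior to Hoxd8 the levels were low. Hoxd9 read 0.385 and 0.321 CPM against 2.07, 1.47 and 1.98 CPM (2.37 ± 0.39, adjusted p = 0.00333). Hoxd10 and Hoxd11 stayed at or below 0.518 CPM in every library (2.60 ± 0.56 and 2.21 ± 0.61). The call of Hoxd10 was lost without quiescent library 2 (adjusted p = 0.0793). That of Hoxd11 was lost without quiescent library 1 (0.0827) or 2 (0.149), and under a block on replicate number (0.0502). Hoxd13, which shapes digits and genitalia, had 2 and 10 counts in quiescent McSC and none in melanocytes, at least 2.92-fold lower there. Hoxd12 had 2 and 1 counts against none, and no fold is given. Hoxd1 had 1 count against 5 in melanocytes over the groups (ratio 6.84, exact 95% interval 0.765 to 324).

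Hoxa differed least by its median, 1.90 over 9 tested genes, of which 6 were called higher in melanocytes (29.1% of all tested genes were). Hoxa10, among the 6, passed the filter only through the melanocyte libraries. Whether the median of Hoxa differs from that of the other clusters was not tested. Hoxa7, a central gene (chromosome 6, 52214491 to 52221854, minus strand), had the highest melanocyte level of the cluster per exon length and read 2.33 and 3.39 CPM against 11.2, 11.2 and 19.0 CPM (2.27 ± 0.36, adjusted p = 0.0028). Of its exonic bases 23.3% overlap the antisense gene Hoxaas3. Hoxa5, which acts in the thoracic skeleton and lung, read 1.73 and 2.69 CPM against 8.26, 6.30 and 8.87 CPM (1.81 ± 0.32, adjusted p = 0.00435). Hoxa2, the selector gene of the second pharyngeal arch crest, read 0.465 and 0.679 CPM against 2.66, 1.76 and 2.03 CPM (1.90 ± 0.40, adjusted p = 0.00851), a call lost without quiescent library 1 (0.0641). Hoxa4 (2.28 ± 0.50) lost its call without quiescent library 1 (0.0618) or 2 (0.0711). The anterior Hoxa3 (1.19 and 1.83 CPM against 5.11, 2.13 and 3.48 CPM) was not called (1.23 ± 0.47, adjusted p = 0.0657). Nor was Hoxa6 (1.38 ± 0.49, adjusted p = 0.0525). In both genes the groups did not overlap. Both were called when only library size was scaled for (adjusted p = 0.047 and 0.0369), which moved the median of all genes from 0.03 to 0.26. Without melanocyte library 2, Hoxa3 (1.49, adjusted p = 0.0386) and Hoxa6 (1.60, 0.0431) were called. DESeq2 also called both (adjusted p = 0.0283 and 0.0296), as did thinning for Hoxa6 (0.0333).

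The posterior genes Hoxa9, Hoxa10, Hoxa11 and Hoxc10 were unevenly spread among the melanocyte libraries. Hoxa10, known from the lumbar spine and the uterus, read 0.16 and 0.0982 CPM in quiescent McSC and 7.33, 0.894 and 0.695 CPM in melanocytes. Library 1 was 9.22 times the mean of libraries 2 and 3, yet these too lay above both quiescent libraries. The log2 fold change of Hoxa10 was 4.55 ± 1.32 (adjusted p = 0.0274), and 2.67 (0.00464) without melanocyte library 1. That call was lost without quiescent library 1 (0.116) or 2 (0.153) and after thinning of all libraries to the shallowest (0.0738). Hoxa9 read 2.07 and 1.45 CPM against 19.3, 5.66 and 7.27 CPM (2.62 ± 0.62, adjusted p = 0.0133). It stood at 1.88 (0.00238) without melanocyte library 1, and lost its call without quiescent library 1 (0.0618) or 2 (0.0947). Hoxc10, a lumbar gene and paralog of Hoxa10, read 0.241 and 0.0536 CPM against 3.28, 0.440 and 0.481 CPM and was not called (3.33 ± 1.24, adjusted p = 0.062). It was called by DESeq2 (0.0131) and under a block on replicate number (0.00984). Its log2 fold change was 1.73 without melanocyte library 1. Hoxa11, a gene of the forearm and the uterus, had no count in quiescent McSC and 22, 1 and 0 counts in melanocytes. That is at least 10.5-fold higher over the group, but 22 of the 23 counts came from library 1. Hoxa13 had 1 count in all 5 libraries together.

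The same library was high in fibroblast markers. As a log2 ratio of melanocyte library 1 to the mean of libraries 2 and 3, the 32 tested Hox genes had a median of 0.36, against -0.01 over all tested genes. Hoxa9 (1.58), Hoxa10 (3.20), Hoxc4 (1.71), Hoxc10 (2.83) and Hoxc12 (2.75) were the 5 Hox genes above 1, where 9.33% of all tested genes were. The ratio of Hoxc12 rests on 9 counts. The median ratio was 1.66 for fibroblast and dermal papilla markers, with 11 of 14 above 1, melanocyte lineage markers -2.45, with 0 of 10, and hair follicle markers -0.46, with 0 of 18. It was 0.44 for keratinocyte markers (4 of 14 above 1), 0.73 for muscle and pericyte markers (2 of 9) and 0.62 for immune markers (3 of 9). Endothelial and Schwann cell markers had 0.21 (0 of 8) and 0.11 (1 of 10). Between the groups, 13 of the 14 fibroblast markers were higher in melanocytes (median log2 fold change 6.07). Their sum was 56.0 and 17.0 CPM in quiescent McSC and 1966 to 5596 CPM in melanocytes, and none was without counts. Col1a1, a collagen gene, read 3.96 and 2.30 CPM against 996, 322 and 302 CPM. The central genes Hoxb7 (-0.29), Hoxb8 (-0.06) and Hoxd8 (-0.38) and Hoxc13 (0.11) were not raised in that library to this extent. Of the 32 tested Hox genes 25 had a ratio above 0, among them the central Hoxc8 (0.78) and Hoxc6 (0.70). The fibroblast markers Dcn (0.01) and Dpp4 (0.10) were not raised there either. Muscle and pericyte markers (9 of 9 tested, 5.84 to 6.04 CPM against 131 to 277 CPM), endothelial (7 of 8, 9.91 to 12 CPM against 32.5 to 59.9 CPM) and immune markers (5 of 9, 15.6 to 24 CPM against 38 to 67.2 CPM) were also higher in melanocytes. Beside these lists and the fibroblast markers, 29.1% of all tested genes were higher in melanocytes and 26.2% lower. One endothelial and 1 immune marker were lower, and the endothelial marker Cldn5 had no count in quiescent McSC. Keratinocyte markers were abundant in both groups, with sums of 3988 and 5139 CPM in quiescent McSC and 4713 to 6470 CPM in melanocytes. The gate left out CD140a, CD31 and CD45, and the genes of these proteins were themselves higher in melanocytes. Pdgfra (CD140a) read 0.85 and 0.223 CPM against 75.0, 24.6 and 16.9 CPM, Pecam1 (CD31) 0.385 and 0.5 CPM against 10.8, 14.5 and 4.97 CPM, and Ptprc (CD45) 0.128 and 0.214 CPM against 2.96, 1.25 and 1.39 CPM. The part of these cells in the Hox differences was not tested.

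**Figure D3:**
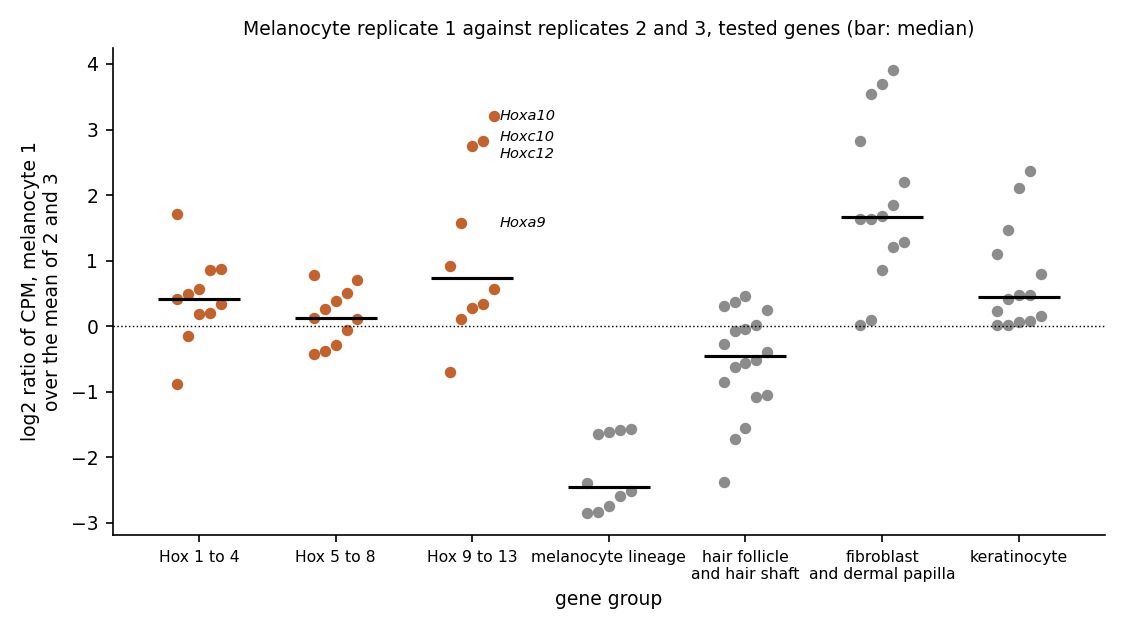
Log2 ratio of the CPM in melanocyte library 1 to the mean of libraries 2 and 3, with 1 point per tested gene and a bar at each group's median. The 3 Hox groups by paralog number (orange) stand beside 4 marker lists (grey). Hoxa10 and Hoxc10 reach 3.20 and 2.83, within the range of the fibroblast and dermal papilla markers, whereas the 10 lineage markers all lie below 0.

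Along the paralog numbers, the tested central genes had a median log2 fold change of 2.69, with 10 of 11 called. The anterior genes had 2.24, with 8 of 11 called, and the posterior genes 2.61, with 8 of 10 called. Of those 10, 5 passed the filter only through the melanocyte libraries, and 4 of the other 5 were called. Among the 11 anterior genes Hoxd3 passed in this way too, and 7 of the other 10 were called. Over all tested genes 29.1% were called higher in melanocytes. The values by range are descriptions, and no difference between the ranges was tested. Number 12 was the only group with a negative value. Paralog 8 was called in 3 of 3 genes (Hoxb8, Hoxc8, Hoxd8), and its sum was 6.87 and 7.58 CPM in quiescent McSC against 85.0, 60.5 and 105 CPM. Some paralogs of equal number had log2 fold changes far apart and others closer together, with no test of the differences. Hoxb5 differed by 4.30 and Hoxa5 by 1.81, Hoxb6 by 4.09 and Hoxc6 by 1.79, and Hoxd8 by 4.68 and Hoxc8 by 2.18. The 4 genes of number 4 lay between 2.08 and 2.89, and their ranges of ± SE overlapped (Hoxb4 2.08 ± 0.50, Hoxa4 2.28 ± 0.50, Hoxd4 2.49 ± 0.50, Hoxc4 2.89 ± 0.75). They share the same libraries, so this overlap does not show that their changes were equal.

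Levels between genes were compared per kilobase of exon (RPKM on TMM-scaled libraries, GENCODE lengths). These lengths may differ from the gene models behind the counts, which would move ranks and shares. In melanocytes Hoxc13 led at 73.6 ± 3.32 RPKM (SD, n = 3). Next came Hoxb2 at 22.3 ± 7.29, Hoxb7 at 20.6 ± 3.61, Hoxb6 at 20.2 ± 6.38, Hoxb3 at 16 ± 4.86 and Hoxb8 at 15.4 ± 6.49 RPKM. The SDs of these 5 neighbours overlapped, but each SD is a spread between libraries that all 5 genes share. Within libraries Hoxb2 was above Hoxb8 in each (20.8, 15.9 and 30.2 against 15, 9.1 and 22.1 RPKM). Hoxb2 and Hoxb7 (17.9, 19.1 and 24.7 RPKM) changed order between libraries. No difference between genes was tested. Hoxd8 (9.34 ± 2.00) and Hoxc8 (9.32 ± 3.18) followed. In quiescent McSC Hoxc13 also led, at 5.15 ± 1.18 RPKM (SD, n = 2), before Hoxb3 at 3.37 ± 0.681, Hoxb2 at 2.38 ± 0.599 and Hoxc8 at 2.06 ± 0.375 RPKM. Hoxb2 and Hoxc8 changed order between the quiescent libraries (1.96 and 2.81 against 2.33 and 1.8 RPKM). By rank, Hoxd8 stood 17th of the 39 in quiescent McSC and 7th in melanocytes, Hoxb7 10th and 3rd, Hoxb5 20th and 11th, and Hoxb1 22nd and 31st. Across the 39 genes the group means had a Spearman rho of 0.91, and 0.88 over the 34 genes with at least 10 counts in all. It is across genes, which share libraries, lengths and gene models and are not replicates.

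With Hoxc13 left out, the shares of Hoxb, Hoxd and central genes were higher in melanocytes than in quiescent McSC. With Hoxc13 included, the Hoxb share (38.1% and 46.2% against 43.2%, 41.2% and 52%) and the central share (36.2% and 40.1% against 39.6%, 38.8% and 44.8%) overlapped between the groups. The Hoxd share then overlapped too (4.34% and 6.2% against 5.89%, 6.64% and 7.21%). Hoxc13 left out, Hoxb made up 49.9% and 54.3% of the summed Hox RPKM in quiescent McSC and 62.1%, 66.8% and 70.9% in melanocytes. The Hoxa share was 20.7% and 22.4% against 13.8%, 11.7% and 10.2%. Hoxc without Hoxc13 held 23.6% and 16% against 15.7%, 10.8% and 9.09%, with the nearest libraries almost touching. The Hoxd share was 5.69% and 7.3% against 8.47%, 10.7% and 9.82%. Central genes made up 47.5% and 47.2% of the sum in quiescent McSC and 57.0%, 62.9% and 61.0% in melanocytes. Anterior genes made up 42.0% and 45.8% against 34.5%, 30.6% and 35.2%. For Hoxa, Hoxb, Hoxd, central and anterior genes the groups did not overlap. Posterior genes did overlap, at 10.5% and 7.01% against 8.51%, 6.49% and 3.85%. No test was made of these shares, which rest on 2 and 3 libraries.

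**Figure D4:**
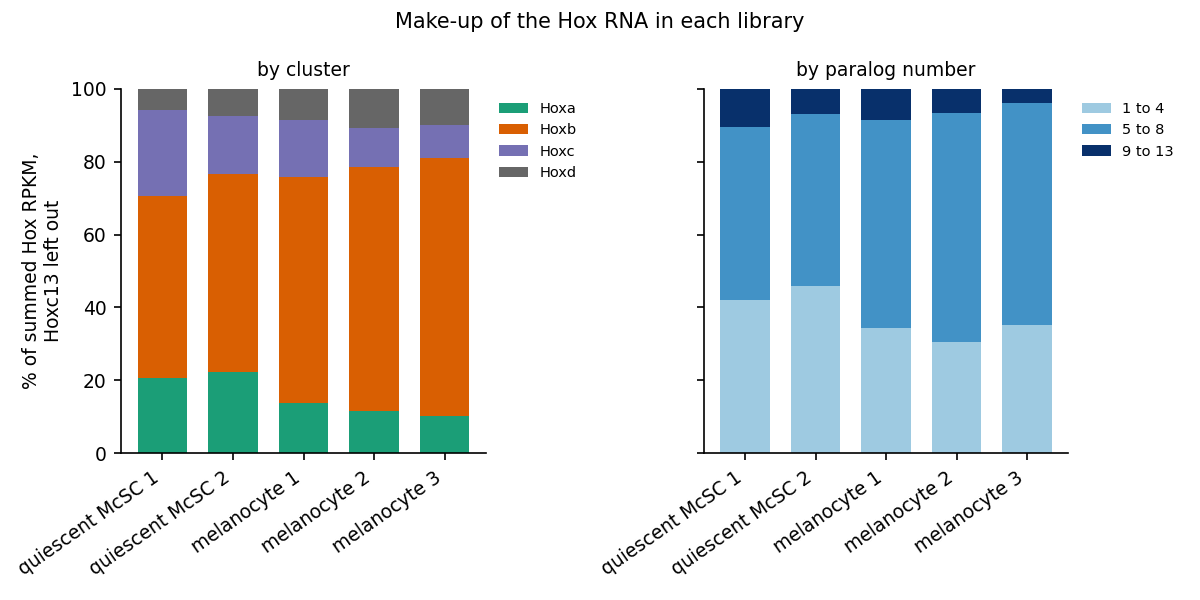
Share of the summed Hox RPKM, Hoxc13 left out, held by each cluster (left) and by each range of paralog numbers (right), with 1 stacked bar per library. Hoxb holds 49.9% and 54.3% in quiescent McSC and 62.1% to 70.9% in melanocytes, and the central numbers 5 to 8 hold 47.2% and 47.5% against 57.0% to 62.9%.

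Hox proteins bind DNA together with TALE homeodomain cofactors of the Pbx, Meis and Pknox families. Of 9 cofactor genes, 4 were lower in melanocytes, 1 was higher and 4 were not called (median log2 fold change -0.54). Over all tested genes 26.2% were lower and 29.1% higher. The count of 4 fell to 2 without quiescent library 2. Pknox2 read 16.7 and 17.5 CPM in quiescent McSC and 0.987, 0.704 and 0.748 CPM in melanocytes (-4.39 ± 0.25, adjusted p = 9.03e-05). Pbx3 was also lower in melanocytes, at 28.9 and 26.6 CPM against 12.9, 13.4 and 13.9 CPM (-1.05 ± 0.14). Pbx2 was the cofactor higher in melanocytes, at 31.8 and 33.5 CPM against 103, 70.2 and 88.5 CPM (1.42 ± 0.18, adjusted p = 0.00124).

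Polycomb complexes, which keep Hox genes silent through histone H3K27 methylation, were called in both directions at shares near those of all genes. Of 27 genes, melanocytes had 8 higher and 8 lower, and 11 were not called (median 0.04). Either count is 29.6% of the list, against 29.1% higher and 26.2% lower over all tested genes. Cbx2, a subunit that reads the methyl mark, was higher in melanocytes, at 8.60 and 7.66 CPM against 90.4, 78.3 and 85.0 CPM (3.38 ± 0.14, adjusted p = 4.49e-05). Ezh1, the methyltransferase of resting cells, was higher in quiescent McSC, at 184 and 216 CPM against 51.2, 43.7 and 41.4 CPM (-2.14 ± 0.14, adjusted p = 0.000119). Phc1, a polyhomeotic subunit, was also higher there (-1.46 ± 0.10). Of 12 genes of Trithorax complexes and H3K27 demethylases, which oppose Polycomb, 6 were higher in melanocytes and 4 lower (2 with library size only), against 29.1% and 26.2% of all tested genes. The demethylase gene Kdm6a read 156 and 159.7 CPM against 65.0, 69.2 and 67.7 CPM (-1.23 ± 0.09), and the core subunits Ash2l (0.76 ± 0.10) and Dpy30 (0.87 ± 0.13) were higher in melanocytes.

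Retinoic acid and Cdx factors are the classical inputs that open Hox clusters in the embryo. Of 17 tested genes, 7 were higher in melanocytes and 4 lower (median 0.77), that is 41.2% and 23.5% against 29.1% and 26.2% of all tested genes. The 7 became 3 with quiescent library 1 left out, and the pair of counts became 4 and 1 with quiescent library 2 left out. Aldh1a3, which makes retinoic acid, read 3.06 and 0.187 CPM in quiescent McSC and 282, 361 and 152 CPM in melanocytes (7.43 ± 1.24, adjusted p = 0.00345). Rxrg, a retinoid X receptor gene, was higher in quiescent McSC, at 12.1 and 11.6 CPM against 0.765, 1.61 and 2.19 CPM (-2.99 ± 0.43, adjusted p = 0.002). Cdx1 had no count in quiescent McSC and 14, 56 and 28 counts in melanocytes, at least 44.7-fold higher, and Cdx2 and Cdx4 had no count in any library.

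**Figure D5:**
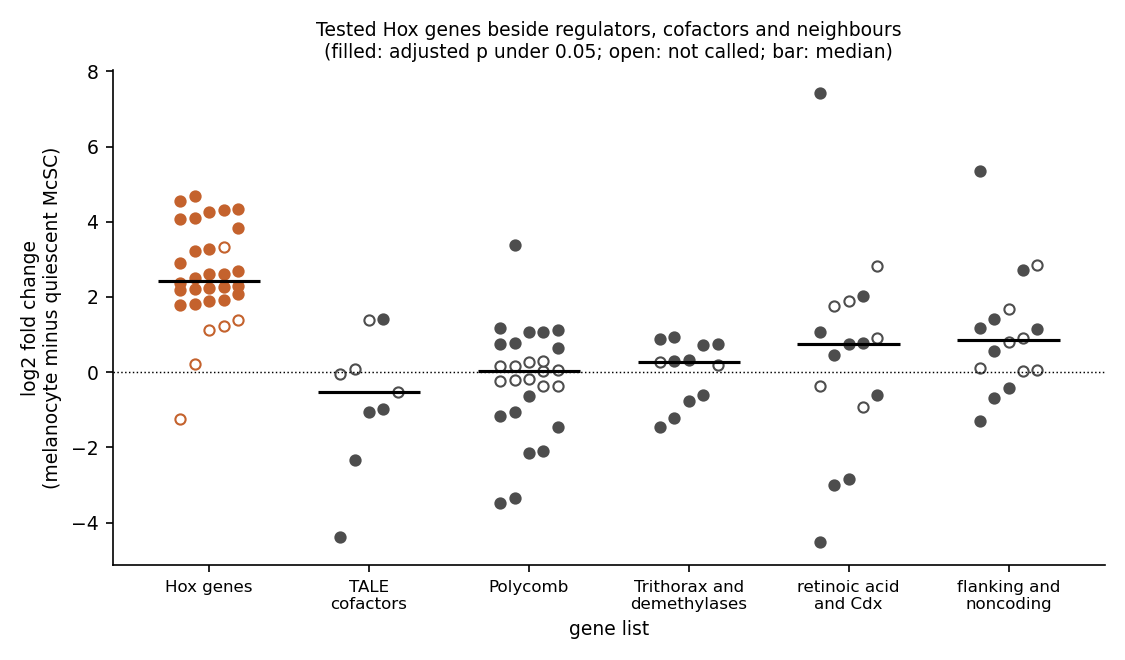
Log2 fold change (melanocyte minus quiescent McSC) of the 32 tested Hox genes (orange) beside 5 lists of cofactors, regulators and neighbours (grey), with 1 point per tested gene and a bar at the median; Cdx1, absent from quiescent McSC, is left out. Filled points passed an adjusted p of 0.05. The median of the Hox genes is 2.43, and the Polycomb list is centred at 0.04.

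Genes that flank or run through the clusters were compared as local neighbours. Of 16 tested, melanocytes had 6 higher and 3 lower, and 7 were not called (median 0.85). These are 37.5% and 18.8% of the list, against 29.1% and 26.2% of all tested genes. Beside Hoxd, Mtx2 was higher in melanocytes, at 30.3 and 25.5 CPM against 64.6, 79.6 and 79.3 CPM (1.42 ± 0.15, adjusted p = 0.000662). Lnpk (0.06 ± 0.11, adjusted p = 0.653) and Hnrnpa3 (0.12 ± 0.17, 0.575), also near that cluster, were not called. Beside Hoxa, Hibadh (-0.69 ± 0.10) and Skap2 (-0.43 ± 0.14) were higher in quiescent McSC. The call of Skap2 was lost in 7 of 13 alternatives, 4 of them with a library left out (adjusted p = 0.186 without quiescent library 1, 0.104 without 2, 0.0716 without melanocyte library 2 and 0.0817 without 3). Beside Hoxc, Smug1 (1.14 ± 0.13) and Cbx5 (1.18 ± 0.14) were higher in melanocytes and Calcoco1 in quiescent McSC (-1.29 ± 0.13). Beside Hoxc, Hnrnpa1 was also called higher (0.55 ± 0.18, adjusted p = 0.0424), a call lost in 6 alternatives (adjusted p = 0.0591 and 0.279 without quiescent library 1 or 2, 0.0737 and 0.091 without melanocyte library 2 or 3, 0.0526 with RLE factors and 0.151 under a block on replicate number). Beside Hoxb, Ttll6 had 0 and 1 counts against 9, 29 and 5 in melanocytes (ratio 58.8, exact 95% interval 10.01 to 2377), and Skap1 was not called (0.02 ± 0.37, adjusted p = 0.96). Hoxb5os, a noncoding gene within Hoxb, read 0.417 and 0.616 CPM against 3.72, 2.73 and 3.90 CPM (2.72 ± 0.39, adjusted p = 0.00185), beside its neighbours Hoxb5 and Hoxb6. Hotairm1 (0.79 ± 0.42, adjusted p = 0.161), Hoxaas2 (1.67 ± 0.73, 0.0975), Hoxaas3 (0.91 ± 0.60, 0.24) and Hoxd3os1 (2.84 ± 1.01, 0.0538) were not called. Hoxd3os1 was called without melanocyte library 1 (3.25, adjusted p = 0.0119), by DESeq2 (0.0109), with no filter (0.047), with library size only (0.045) and after thinning (0.0366). Hotair, the noncoding gene between Hoxc11 and Hoxc12, had 1 and 1 counts in quiescent McSC and 15, 1 and 1 in melanocytes, and 15 of its 17 melanocyte counts came from library 1.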

How the data were processed

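The authors deposited whole-number counts per gene and library, read here as raw counts. The submitters' processing notes name the build mm10, STAR 2.5.2a and Salmon 0.8.2 with no roles. Which program and annotation gave the counts is not given in the sources used here. Per the labels the libraries are poly-A selected and non-stranded, so antisense and overlapping genes cannot be told apart, and each is a biological replicate of pooled males.

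Of 24100 Entrez identifiers 24045 matched a RefSeq symbol (GRCm38.p6). Genes were filtered with filterByExpr, scaled by TMM and tested in edgeR 4.0.16 (R 4.3.3) with glmQLFit and glmQLFTest, two-sided, all 5 libraries in one fit without covariates, Benjamini-Hochberg adjustment over 16953 genes and a threshold of 0.05. Standard errors were derived from the fold change and F. CPM use TMM-scaled libraries, and RPKM divide them by the exon length of GENCODE M21. Bounds take 3 counts over a group at 0. The fit was tested on simulated data. Alternatives were RLE factors, library size only, no filter, a filter of 1 CPM in 2 libraries, DESeq2 1.42.0, limma-voom (limma 3.58.1), a replicate block, thinning and leaving out each library. Their use on the other lists was chosen after seeing the data.

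The Hox genes and all lists were chosen with earlier results of these data known. The Hox genes were described by cluster and paralog number. Some members enter the counts only and are not named here. Of each other list, up to 3 called members with the smallest p were named, and flanking genes that passed the filter. Dct, Sox10, Pdgfra, Pecam1, Ptprc, Hotair, Cdx2, Cdx4, Cldn5, Krt34, Dcn and Dpp4 were named after their values were seen. For the marker counts that follow, 29.1% of all tested genes were higher in melanocytes and 26.2% lower. Keratinocyte markers (7 higher and 6 lower in melanocytes of 14) and Schwann cell markers (4 and 4 of 10, with 2 higher when either quiescent library or melanocyte library 2 is left out) were also counted.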

Additional observations from a re-analysis of the deposited data

How the results depend on the processing

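The number of Hox genes higher in melanocytes was 26 of 32 tested in the main setting. It lay between 23 (of 25 tested) and 29 (of 32 tested) under the 8 alternatives that keep all libraries. It was between 17 and 28 when 1 library was left out, with 17 without quiescent library 1. No Hox gene was called higher in quiescent McSC under any alternative run. Over all genes, leaving out 1 library gave 2955 to 4857 genes higher in quiescent McSC, the lowest without quiescent library 2. Of the 26 called Hox genes, 0 changed direction and 10 lost their call in at least 1 alternative. Hoxb1, not called, changed sign with the replicate block (-0.01) and with 1 library left out ranged from -0.32 (quiescent library 2) to 0.99 (quiescent library 1), with -0.13 for melanocyte library 3, and the cause was not tested. With the replicate number as a block 26 Hox genes were higher in melanocytes, and of all genes 3933 were higher there and 3479 lower. The labels give no shared source behind equal numbers. The deviations of same-numbered libraries from their group means correlated at 0.04 and -0.06 over 16953 genes. Those of the 2 quiescent libraries mirror each other, so these values cannot decide whether libraries were paired. With 2 quiescent McSC libraries and a 7.11-fold range of totals, genes of a few counts (Hoxa13, Hoxc11, Hoxd1, Hoxd12, Hoxd13) cannot be compared beyond the bounds given.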
